A study of Mus musculus with 6 samples.

Results

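Voltage-gated ion channels and neurotransmitter receptors were followed in mouse embryonic stem (ES) cells depleted of Ehmt2, also known as G9a, a histone methyltransferase that places dimethylation on lysine 9 of histone H3. The genes were chosen by symbol alone: potassium channel subunits (Kcn), sodium channel subunits (Scn), calcium channel subunits (Cacna, Cacnb, Cacng), ionotropic and metabotropic glutamate receptors (Gria, Grik, Grin, Grm), GABA-A receptors (Gabr) and glycine receptors (Glra, Glrb), wherever the mean read count over all libraries was above 0. Of 180 symbols of these patterns, 173 met the rule, out of 20461 genes with a mean above 0 and 25239 genes in all. The rule used the mean level and not the difference between the siRNA groups. The 7 symbols at a mean of 0, just outside the rule, included Gabra6, Gabrr3, Glra3, Grik1, Kcna4 and Kcnk15, and 11 genes just inside it had a single read in all 6 libraries.

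Cells of the E14 line, a wild-type mouse ES cell line, were grown in N2B27 medium with LIF and 2i, which keep ES cells undifferentiated. They were transfected by lipofection with a control siRNA or with siRNA against Ehmt2, 2 µl of a 40 µM stock in either case, and collected 3 days later. Messenger RNA was sequenced from 3 libraries a group. The labels do not say whether the 3 libraries of a group came from separate cultures, so the p-values measure the spread between these libraries, which may be technical. An siRNA lowers a transcript without removing it, and a single parental line was used, so the groups model partial loss of Ehmt2 in 1 cell line.

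Voltage-gated channels open a pore for potassium, sodium or calcium ions when the membrane depolarises, and together they shape the action potential. The Kcn symbols also take in genes that are not counted as voltage-gated channels, among them 15 inward rectifier and 13 two-pore potassium channel genes. Ligand-gated receptors for glutamate, GABA and glycine open or signal when transmitter binds, glutamate mostly exciting and GABA and glycine mostly inhibiting mature neurons. Many of these genes are silent or weakly transcribed outside nerve, muscle and endocrine cells, and a number of them are known targets of the repressor REST, whose corepressor complexes can include G9a.

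To show what lies upstream of the genes that moved, the 250 bases before the annotated start are printed for 4 of them. By the first RefSeq start listed for each gene, and among the 5 rising and 6 falling genes with one, these are the rising genes with the fewest (Gabra3) and the most (Gabrg3) CpG dinucleotides and the falling genes with the fewest (Kcnj12) and the most (Grin2c). CpG dinucleotides, the sites of DNA methylation in mammals, are in capitals. The sequences are RefSeq's on GRCm38.p6, from chrX:72656920-72657169 on the minus strand, chr7:57387216-57387465 on the minus strand, chr11:61065554-61065803 on the plus strand and chr11:115267244-115267493 on the minus strand, each written 5′ to 3′ toward the gene.
Gabra3: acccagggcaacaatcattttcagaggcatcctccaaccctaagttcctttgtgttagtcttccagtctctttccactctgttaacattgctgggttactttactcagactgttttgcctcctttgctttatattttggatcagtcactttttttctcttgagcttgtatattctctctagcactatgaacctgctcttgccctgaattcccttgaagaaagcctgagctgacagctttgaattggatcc
Gabrg3: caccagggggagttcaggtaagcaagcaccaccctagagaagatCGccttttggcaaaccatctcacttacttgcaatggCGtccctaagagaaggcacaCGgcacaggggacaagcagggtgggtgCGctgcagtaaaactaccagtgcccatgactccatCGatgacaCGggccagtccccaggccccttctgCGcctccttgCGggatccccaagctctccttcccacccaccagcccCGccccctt
Kcnj12: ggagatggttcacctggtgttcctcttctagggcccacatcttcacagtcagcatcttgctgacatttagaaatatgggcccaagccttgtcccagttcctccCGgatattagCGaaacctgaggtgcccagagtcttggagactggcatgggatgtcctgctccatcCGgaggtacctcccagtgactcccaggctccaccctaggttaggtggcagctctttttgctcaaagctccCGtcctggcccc
Grin2c: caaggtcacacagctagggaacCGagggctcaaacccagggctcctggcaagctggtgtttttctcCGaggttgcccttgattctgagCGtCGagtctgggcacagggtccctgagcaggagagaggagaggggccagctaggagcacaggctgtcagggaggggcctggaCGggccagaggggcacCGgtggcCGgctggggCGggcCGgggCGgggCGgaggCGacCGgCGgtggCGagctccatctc
The Gabra3 stretch holds 0 CpG and has a GC content of 42.4%, whereas the Grin2c stretch holds 15 and has a GC content of 68.8%. Gabrg3, with 9, and Kcnj12, with 4, lie between them. Because the 4 were chosen as the extremes of each direction, their order shows only that the ranges overlapped. It cannot show whether the direction of change went with CpG. The Kcnj12 and Grin2c starts used here lie inside longer gene models, chr11:61022564-61073269 and chr11:115249169-115267297. The whole Kcnj12 stretch and the end of the Grin2c stretch nearest its start therefore lie within the annotated gene.

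The authors deposited 1 table for the comparison, with the mean normalized count of each gene over the 6 libraries, a log2 fold change and an unadjusted p-value. Reads per library were recovered from the 15-digit means for 168 of the 173 genes, as described under processing, and are given as normalized counts (reads divided by the library's size factor). The recovered libraries carry no replicate number, so within each group they are called A, B and C in order of falling size factor. Size factors, the relative depths, ran from 0.845 in control C to 1.25 in Ehmt2 siRNA A, and the absolute depth of each library is unknown. Over 4573 genes with a mean of 50 to 1000, control A and B differed by a median of 0.111 on the log2 scale and Ehmt2 siRNA B and C by 0.114, while control C and Ehmt2 siRNA A differed from the other libraries of their own group by 0.258 to 0.279. Control C and Ehmt2 siRNA A thus stood apart within their groups, and differed from each other by 0.255. No pair of libraries agreed within counting noise (chi-square test over these genes, mean chi-square per gene of 1.84 in the closest pair), so all 6 were kept, and values without these libraries are given below where they change a call.

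The direction of the deposited fold changes was read from Ehmt2 itself, the targeted gene, which had a log2 fold change of -1.53 (95% interval -1.76 to -1.29, mean 6426) in the authors' deposited table, with a Benjamini-Hochberg adjusted p of 2.87e-33. It therefore cannot check the labels independently, and its values per library were not recovered. Of 12 ES cell markers, 0 passed in either direction at an adjusted p below 0.05, with means from 2908 to 122043, so the defining markers of the labelled cell type were abundant. Over all tested genes 5.45% rose and 4.82% fell. All 10 markers of 2-cell-like cells, a rare state in ES cell cultures, rose. The marker lists were written with earlier results of these data known, so such a count only describes the list. The summed normalized count of these 10 markers was 203, 161 and 53.3 in control A, B and C. It was 562, 1243 and 1163 in Ehmt2 siRNA A, B and C. The sum was thus lowest within each group in the library that stood apart. Of the 12 neuron markers Snap25 rose and Nefl fell, and of the 9 neural progenitor markers tested Nes fell. Of 7 glial markers 0 passed, of 12 cardiac and skeletal muscle markers Myh7 rose and Ryr1 fell, and of 9 fibroblast markers Col1a2 rose.

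Most channel and receptor genes had few reads in these cells. Their median mean normalized count was 13.1, against 354 over all tested genes, and 79 of 173 lay below 10. Only 39 reached 100 and 6 reached 1000. The 6 were Grik3, a kainate receptor subunit (8650), Kcnk5, an acid-sensitive background potassium channel (4154), Cacna1a, the pore of P/Q-type calcium channels (2069), Grin1, the obligatory NMDA receptor subunit (1651), Cacnb3 (1343) and Cacnb1 (1204), the last being cytoplasmic beta subunits of calcium channels. Per kilobase of the longest annotated transcript, Kcnk5 led with 1225 normalized counts, followed by Grik3 with 964, Cacnb3 with 491 and Kcnj12 with 399.

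At an adjusted p below 0.05, 7 of the 173 genes rose and 8 fell after Ehmt2 siRNA. The background over all 20461 tested genes was 5.45% rising and 4.82% falling, and the shares here were 4.05% and 4.62%, which is near the background in both directions. At a mean of 50 or more, 3 of 49 rose and 6 fell, against 6.86% and 7.19% of all genes at that level. From 10 to 50, 3 of 45 rose and 2 fell, against 8.05% and 2.52%. Below 10, 1 of 79 rose and 0 fell, against 0.941% and 0.0376%. At an unadjusted p below 0.05 the DESeq2 comparison had 2 of these 79 higher and 0 lower. Of all 5315 genes below 10, 169 were higher and 31 lower. From 10 to 50, 6 of 45 were higher and 4 lower at that threshold, against 289 and 166 of 2224 genes. At a mean of 50 or more, 3 of 49 were higher and 14 lower, against 1630 and 1755 of 12922 genes. These counts were not tested. The median log2 fold change over the 173 genes was -0.06, against 0.01 over all tested genes. Because RNA was taken from the whole culture, fewer or more cells that transcribe a gene and less or more RNA per cell cannot be told apart.

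The sizes differed by direction. The 7 rising genes had a median log2 fold change of 2.58, against 0.64 over all genes that rose, and the 8 falling genes one of -0.69, against -0.53 over all that fell. When a change of at least 1 on the log2 scale was also required, 6 rose and 2 fell, against a background of 2.1% and 0.758% of all tested genes. Most rising genes started from a handful of reads, where a call needs a large fold change, so these medians describe the genes and do not set them apart.

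**Figure D1:**
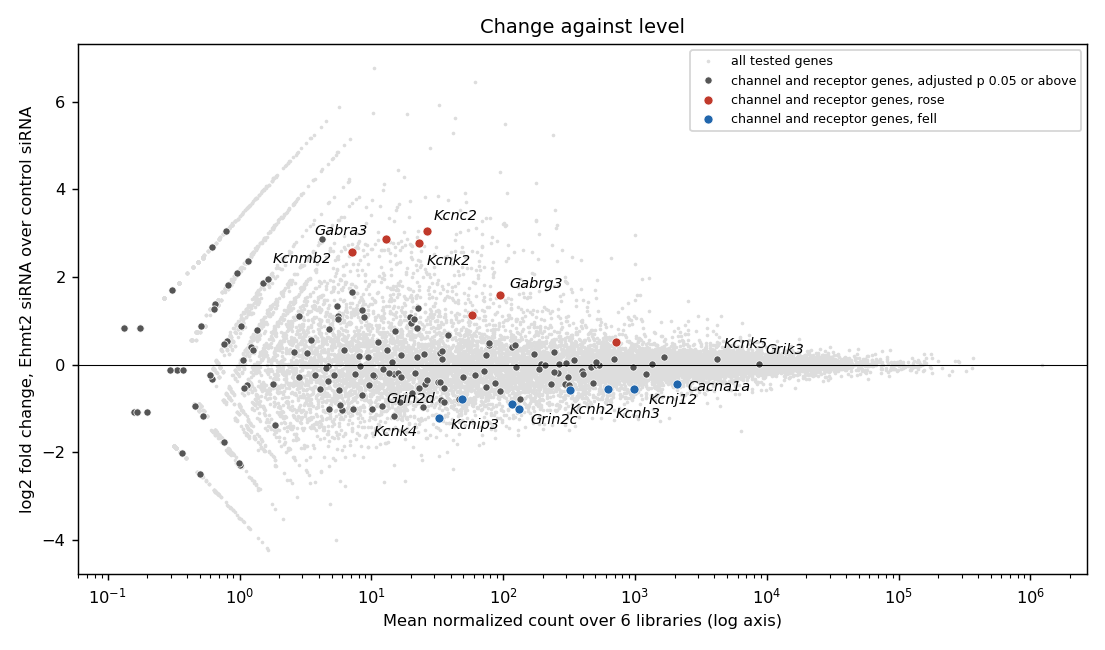
Log2 fold change of Ehmt2 siRNA over control siRNA (vertical axis) against the mean normalized count over 6 libraries (horizontal log axis), for all tested genes (light grey) and the 173 channel and receptor genes (dark grey, red for the 7 that rose, blue for the 8 that fell). Rising genes lie mainly at low means with large changes, and falling genes at higher means with small ones.

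Among potassium channels, Kcnk2 and Kcnc2 rose from near the floor of detection. Kcnk2, which encodes the mechano- and heat-sensitive background channel TREK-1, had normalized counts of 4.78, 5.97 and 7.10 in control A, B and C and of 43.3, 50.4 and 27.3 in Ehmt2 siRNA A, B and C. Every Ehmt2 siRNA library was far above every control library. The change was 6.84-fold (95% interval 3.27 to 14.3) in the authors' deposited table, with an adjusted p of 1.68e-05, and the call was kept without any 1 library. Exons of Kcnk2 share 604 bases with the antisense transcript A430027H14Rik on the annotation, and no source used here says how the authors treated strand.

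Kcnc2 encodes Kv3.2, a fast delayed rectifier that lets neurons fire at high rates. Its normalized counts were 3.82, 3.98 and 9.47 in the controls and 25.6, 59.9 and 54.6 after Ehmt2 siRNA. The groups did not overlap. The library lowest within the Ehmt2 siRNA group, A, was also the lowest there in 2-cell-like markers. Among the controls the order was opposite, with Kcnc2 highest in control C, where those markers were lowest. The part of the 2-cell-like markers in the Kcnc2 result was not tested. The authors' deposited table gave a log2 fold change of 3.05 (95% interval 1.86 to 4.23) with an adjusted p of 2.34e-05. Without control C and Ehmt2 siRNA A the log2 fold change was 3.88, and the call was kept.

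Kcnmb2, an auxiliary beta subunit that inactivates large-conductance calcium-activated potassium channels, rested on 3, 2 and 1 reads in the controls and 12, 15 and 11 reads after Ehmt2 siRNA. The groups were separate at this low depth. The authors' deposited table gave a log2 fold change of 2.58 (95% interval 0.85 to 4.31, adjusted p = 0.0378). The call was lost in 5 of the 6 fits that omitted a library and kept only without Ehmt2 siRNA A, with log2 fold changes of 2.33 to 2.93, and it was lost without control C and Ehmt2 siRNA A together, at 2.49.

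Falling potassium channel genes had more reads and smaller changes. Kcnh3 and Kcnh2 encode EAG-type voltage-gated channels, Kcnh2 being the hERG channel that repolarises the heart. Kcnh3 had 730, 734 and 786 normalized counts in the controls and 618, 423 and 470 after Ehmt2 siRNA, and Kcnh2 had 358, 381 and 418 and then 308, 219 and 238. In both genes Ehmt2 siRNA A was the least lowered library, and it still lay below every control. The Kcnh3 level was 67.3% of control (95% interval 54.4 to 83.2, adjusted p = 0.00474) and the Kcnh2 level 66.5% (52.9 to 83.6, adjusted p = 0.00789) in the authors' deposited table. Without Ehmt2 siRNA B, neither passed, with log2 fold changes of -0.46 and -0.49.

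Kcnj12, a strong inward rectifier that sets the resting potential of muscle, had 1260, 1265 and 988 normalized counts in the controls and 651, 865 and 865 after Ehmt2 siRNA. Control C was closest to the Ehmt2 siRNA libraries, and the groups did not overlap. The log2 fold change was -0.56 (95% interval -0.87 to -0.26, adjusted p = 0.00512) in the authors' deposited table, and -0.44 without Ehmt2 siRNA A, where the call was lost. Kcnip3, a calcium-binding protein that accompanies Kv4 channels and also binds DNA as DREAM, had 171, 173 and 110 normalized counts in the controls and 72.1, 78.8 and 93.5 after Ehmt2 siRNA. Control C again lay nearest to the treated libraries. Its level was 53.5% of control (95% interval 37.9 to 75.5, adjusted p = 0.0064) in the authors' deposited table, and the call was kept without any 1 library.

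Kcnk4, which encodes the background channel TRAAK, is uncertain because its exons share 587 bases on the same strand with Catsperz, a sperm ion channel accessory gene. Kcnk4 had 37.3, 56.7 and 42.6 normalized counts in the controls and 20.0, 17.9 and 21.0 after Ehmt2 siRNA, and Catsperz had 255, 308 and 211 and then 103, 123 and 112. Both genes were lower in every Ehmt2 siRNA library, Catsperz on several times more reads. In the authors' deposited table Kcnk4 had a log2 fold change of -1.21 (adjusted p = 0.0170) and Catsperz one of -1.20 (adjusted p = 2.21e-07). Reads assigned to the one or the other cannot be told apart here, and the Kcnk4 call was lost without control B or without Ehmt2 siRNA B, at -1.02 and -1.15, and without control C and Ehmt2 siRNA A together, at -1.27.

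**Figure D2:**
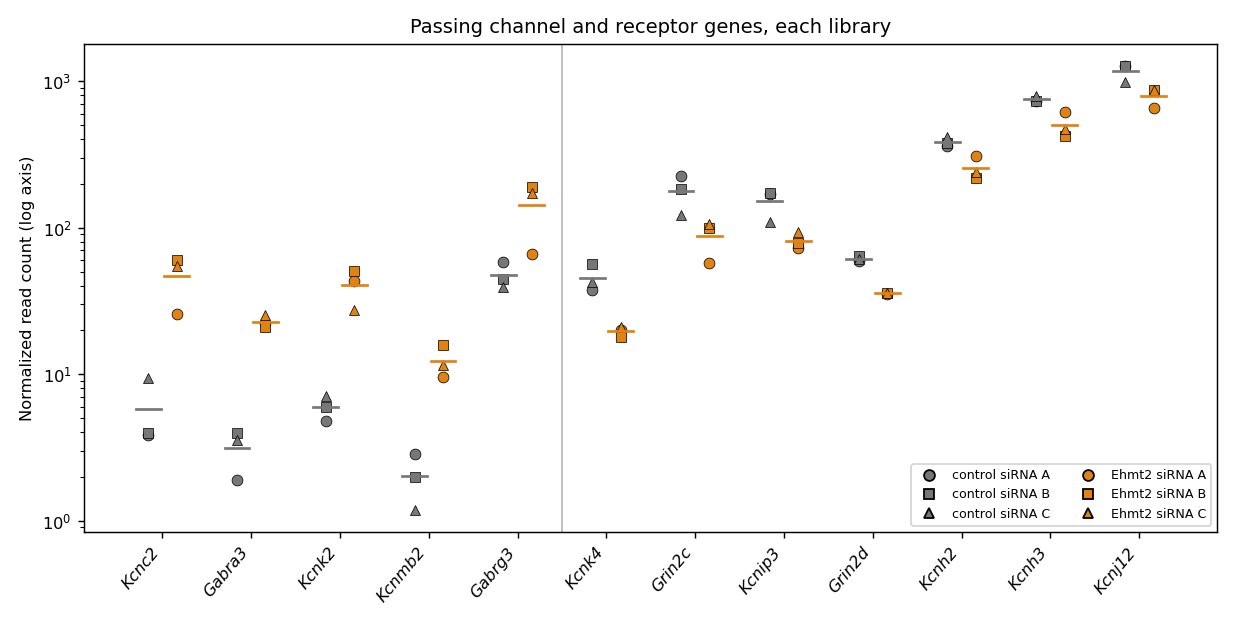
Normalized counts in each of the 3 control siRNA and 3 Ehmt2 siRNA libraries for 12 of the genes that passed (log vertical axis, genes along the horizontal axis with the rising ones on the left, 1 point a library, bars at the group means). In all 12 the groups do not overlap, and the log2 fold change is largest in Kcnc2, Gabra3 and Kcnk2. The genes were chosen because they passed, a choice that favours separate groups. Over the 6796 recovered genes with a mean of 10 to 1000, all Ehmt2 siRNA libraries lay above all controls in 17.1% and below in 17.9%.

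The remaining potassium channel genes did not pass. Kcnk5 had a log2 fold change of 0.12 in the authors' deposited table (adjusted p = 0.260). Just short of the threshold in the authors' deposited table were Kcnt2, a sodium-activated channel (log2 fold change -0.80, adjusted p = 0.0517), Kcnn1, a small-conductance calcium-activated channel (-0.43, adjusted p = 0.0540), and Kcnk6 (-0.47, adjusted p = 0.0655). In the recovered reads each had 3 Ehmt2 siRNA libraries below 3 controls, as did 17.9% of the 6796 recovered genes with a mean of 10 to 1000. They were picked for their p, a choice that favours separate groups.

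Sodium channel genes gave no call among 10 alpha and 4 beta subunits. At an unadjusted p below 0.05 the DESeq2 comparison had 1 of them higher, Scn2a, and 1 lower, the beta subunit Scn4b. Of all 20461 tested genes, 2088 were higher and 1952 lower at that threshold. Scn3a, the alpha subunit of embryonic neurons, had the highest mean count of the alpha subunits, with 500, 400 and 391 normalized counts in the controls and 380, 335 and 398 after Ehmt2 siRNA. The groups overlapped, and the log2 fold change was -0.21 in the authors' deposited table (adjusted p = 0.505). Scn2a, a main alpha subunit of axons, had 34.4, 25.9 and 28.4 and then 51.3, 46.2 and 44.1. Its groups were separate, but with a log2 fold change of 0.68 in the authors' deposited table it did not pass (adjusted p = 0.212). The beta subunit Scn2b, which modulates gating and adhesion, ranged from 579 to 713 in the controls and from 687 to 770 after Ehmt2 siRNA, and did not pass.

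Among calcium channel genes, Cacna1a fell to 73.6% of control (95% interval 61.9 to 87.6) in the authors' deposited table, with an adjusted p of 0.00900. Its mean lay above the largest searched for whole reads, 1500, so no values per library are given and the omission of libraries was not run for it. Exons of Cacna1a share 435 bases with the antisense transcript Gm16183 on the annotation. The other 9 alpha1 subunits did not pass, 1 of them, Cacna1e, being higher at an unadjusted p below 0.05 (1.10 on the log2 scale in the authors' deposited table, adjusted p = 0.215), and of the 16 alpha2delta, beta and gamma subunits 0 passed. In the DESeq2 comparison 3 of those 16, Cacng7, Cacnb1 and Cacna2d2, had an unadjusted p below 0.05, all lower. Of all 20461 tested genes, 2088 were higher and 1952 lower at that threshold, and no test of the family was made. Cacnb1 had 1212, 1287 and 1378 normalized counts in the controls and 1158, 1098 and 1087 after Ehmt2 siRNA. The groups were separate by a small margin, and the log2 fold change of -0.21 in the authors' deposited table did not pass (adjusted p = 0.113). Cacng7, a gamma subunit that also accompanies AMPA receptors, had a log2 fold change of -0.44 there and an adjusted p of 0.0844.

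In the glutamate receptors, 2 of 7 NMDA receptor subunits fell and no other gene passed. The background over all tested genes was 5.45% rising and 4.82% falling, and the NMDA family as such was not tested. Grin2c and Grin2d encode glutamate-binding GluN2 subunits that join the obligatory subunit Grin1. Grin2c had 225, 184 and 122 normalized counts in the controls and 57.7, 99.8 and 106 after Ehmt2 siRNA. Control C was the lowest control and lay just above the highest treated library. Its level was 49.3% of control (95% interval 32.1 to 75.7, adjusted p = 0.0169) in the authors' deposited table, and the call was lost without control A (log2 fold change -0.81), without Ehmt2 siRNA A (-0.79) and without control C and Ehmt2 siRNA A together (-0.99).

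Grin2d had 59.2, 63.7 and 61.6 normalized counts in the controls and 35.2, 35.7 and 35.7 after Ehmt2 siRNA. The libraries of a group were nearly equal and the groups were separate. The log2 fold change was -0.79 in the authors' deposited table (95% interval -1.34 to -0.24, adjusted p = 0.0480), so close to the threshold that omitting any 1 library ended the call, at -0.82 to -0.76. An antisense transcript, Gm45441, shares 643 exon bases with Grin2d. Of the other 5 NMDA receptor genes, Grin3a (-1.01), Grin2a (-0.94) and Grin3b (-0.57) had negative log2 fold changes in the authors' deposited table and Grin1 (0.17) and Grin2b (0.23) positive ones, none of them passing. The median over the 7 subunits was -0.79, the value of Grin2d itself, against 0.01 over all tested genes.

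Grik3, which had the highest mean count of the 173, showed a log2 fold change of 0.00 in the authors' deposited table, with a 95% interval from -0.27 to 0.27. Grik5, a kainate subunit that needs partner subunits, had 357, 399 and 256 normalized counts in the controls and 195, 272 and 283 after Ehmt2 siRNA. Its groups overlapped, through control C. None of 8 AMPA and kainate receptor genes and none of 7 metabotropic receptor genes passed. In the DESeq2 comparison 1 of them, Grik5, had an unadjusted p below 0.05 and was lower. Grm7, a presynaptic metabotropic receptor, had 251, 250 and 127 normalized counts in the controls and 129, 250 and 249 after Ehmt2 siRNA. In each group 1 library, control C or Ehmt2 siRNA A, was at about the same low level while the others were nearly equal, and the log2 fold change was -0.00.

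**Figure D3:**
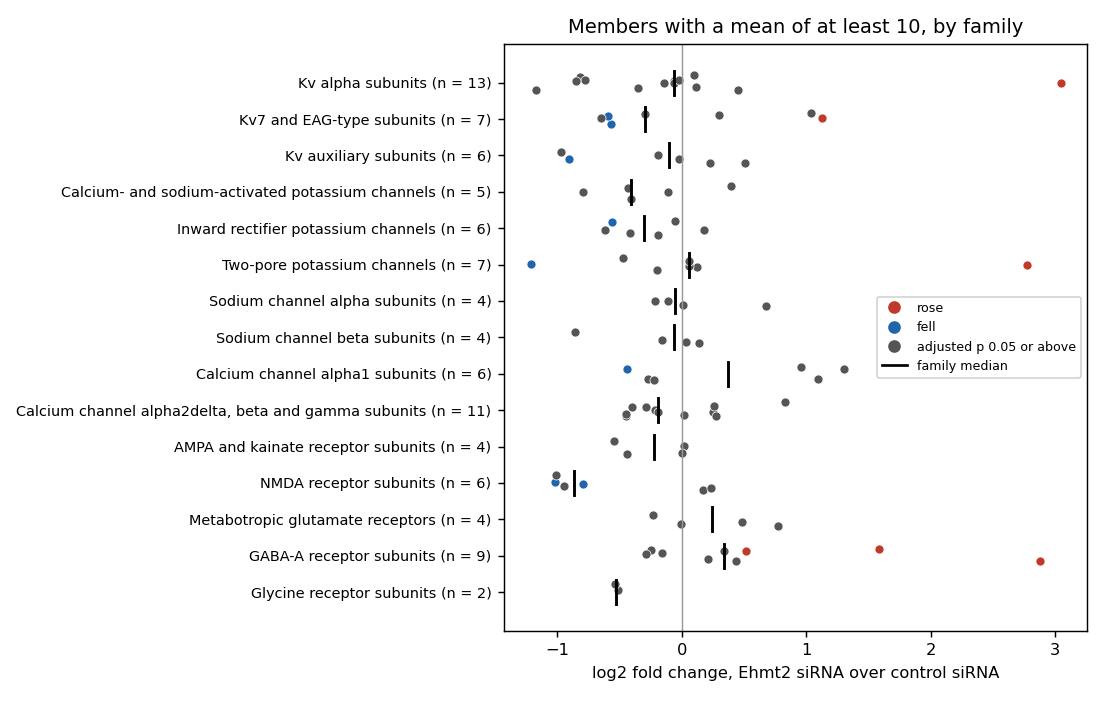
Log2 fold change of every gene with a mean of at least 10, by family (rows), with red for genes that rose, blue for genes that fell grey for the rest and a bar at the family median; the rising gene Kcnmb2 is not shown because its mean is 7.16. GABA-A receptors hold 3 of the 7 rising genes, and NMDA receptors 2 of the 8 falling ones. Over all tested genes 5.45% rose and 4.82% fell, and no family was tested.

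GABA-A receptor subunits held 3 of the 7 rises and no fall, 3 of 17 measured members, against 5.45% rising and 4.82% falling over all tested genes. No test of the family was made. The receptor is a ring of subunits around a chloride channel, and most forms combine alpha, beta and gamma subunits.

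Gabra3, an alpha subunit typical of immature neurons, had 1.91, 3.98 and 3.55 normalized counts in the controls and 22.4, 21.0 and 25.2 after Ehmt2 siRNA. These rest on 2, 4 and 3 reads and on 28, 20 and 24 reads. The groups were far apart and the treated libraries close to each other, including Ehmt2 siRNA A, in which the 2-cell-like markers were lowest of that group. The rise was 7.33-fold (95% interval 2.90 to 18.5, adjusted p = 6.67e-04) in the authors' deposited table, and the call was kept without any 1 library.

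Gabrg3, a gamma subunit, had 58.3, 44.8 and 39.1 normalized counts in the controls and 65.7, 189 and 173 after Ehmt2 siRNA. Ehmt2 siRNA A was only just above control A, whereas B and C were several times higher, an order that the summed 2-cell-like markers also had. The log2 fold change was 1.58 in the authors' deposited table (95% interval 0.78 to 2.39, adjusted p = 0.00242), it was 1.81 without control C and Ehmt2 siRNA A, and the call was kept without any 1 library. The part of the 2-cell-like markers in this result was not tested.

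Gabrg3 and Gabra5 adjoin on chromosome 7 (GRCm38 chr7:56716463-57387215 and chr7:57407669-57591016). Gabra5, a further alpha subunit, did not pass and had 20.1, 18.9 and 16.6 normalized counts in the controls and 20.0, 12.6 and 12.6 after Ehmt2 siRNA. Its groups overlapped, and the log2 fold change was -0.28 in the authors' deposited table (95% interval -1.25 to 0.68, adjusted p = 0.912). The cluster on the X chromosome holds Gabre, Gabra3 (chrX:72432676-72656919) and Gabrq. Gabre had 57.3, 66.7 and 75.8 and then 76.9, 98.7 and 94.5 normalized counts, separate by a narrow margin, and did not pass (change of 0.44 on the log2 scale in the authors' deposited table, adjusted p = 0.338). Gabrq had 0 reads in all controls and 2, 3 and 0 after Ehmt2 siRNA.

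Gabrp, a subunit known from epithelial tissues, did not pass (mean 395, fold change of -0.16 on the log2 scale in the authors' deposited table). Of the 4 glycine receptor genes, none passed. In the DESeq2 comparison 0 of them had an unadjusted p below 0.05. Glrb, the beta subunit that anchors the receptor, had 98.4, 100.5 and 62.7 normalized counts in the controls and 48.1, 63.0 and 73.5 after Ehmt2 siRNA, and these overlapped.

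Separation of the groups was common without a call. Of 88 recovered genes with a mean of 10 to 1000, all Ehmt2 siRNA libraries lay above all controls in 13 and below in 20. Over the 6796 recovered genes of that range the background was 17.1% above and 17.9% below, against 14.8% and 22.7% here. The count below was thus a few genes over the background, and the count above a few under.

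The rising and falling genes differed in base composition. The GC content of the longest transcript was 40.1% to 53.9% in the 7 rising genes (median 43.1%) and 54.0% to 65.0% in the 8 falling ones (median 59.8%), without overlap. The same order held over the whole table, with a median of 45.5% in all rising genes, 55.2% in all falling genes and 49.6% in all tested genes. A smooth trend of log2 fold change on GC over genes with a mean of at least 50 ran from 0.10 at 40% GC to -0.12 at 60%. With the trend subtracted from every gene, 7 genes still rose and 5 fell, against 4.48% and 3.53% of all genes with a GC value. Cacna1a (adjusted p = 0.0949), Grin2c (0.0553), Grin2d (0.155), Kcnh2 (0.0641) and Kcnmb2 (0.0587) no longer passed, and Kcnk5 (log2 fold change 0.20, adjusted p = 0.0206) and Kcnt2 (log2 fold change -0.93, adjusted p = 0.0195) then did. The part of GC content in these calls was not tested further.

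**Figure D4:**
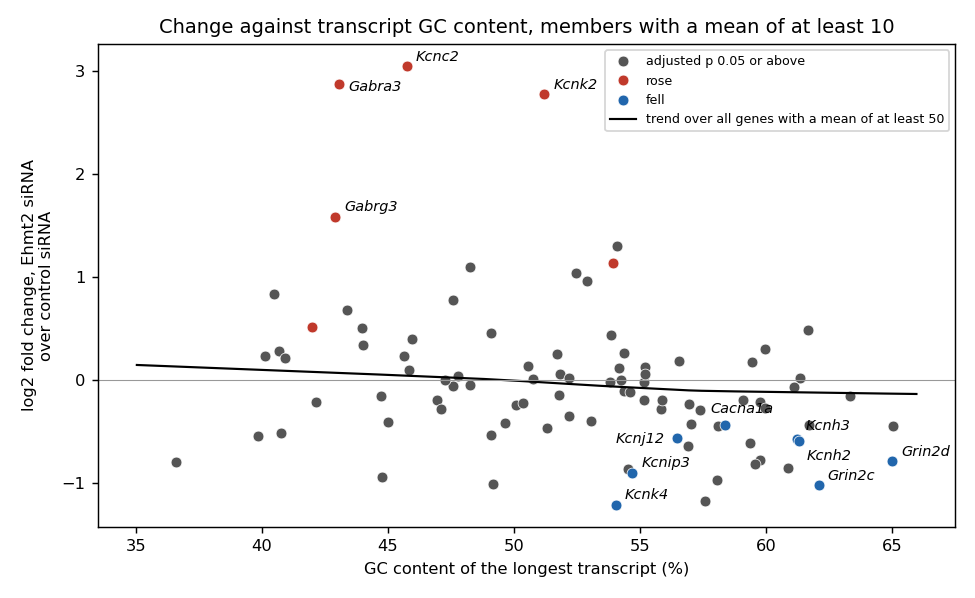
Log2 fold change (vertical axis) against the GC content of the longest transcript in percent (horizontal axis) for channel and receptor genes with a mean of at least 10, red for those that rose and blue for those that fell, with the trend over all genes with a mean of at least 50 as a line. The rising genes lie at or below 53.9% GC and the falling genes at or above 54.0%, and Kcnmb2, at 40.1%, is not shown.

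RefSeq windows from 250 bases before to 50 bases after the start were matched for 126 of the 173 genes, among them 5 of the rising and 6 of the falling genes. In the first window listed for each gene, CpG counts over those 300 bases ran from 0 to 13 in the rising genes (median 6) and from 4 to 22 in the falling ones (median 10), so the ranges overlapped, as the 4 stretches printed above show. Some genes had several starts, and over all their windows the counts reached 33 in the rising gene Kcnk2, which had 4 windows, and 28 in the falling gene Kcnip3, which had 3. The median was 10.5 over the 126 genes and 17 over 15507 tested genes. REST binds a bipartite element, RE1. Its left part, searched as TTCAGCACC on both strands, was in the windows of 2 of the 126 genes, Grm2 and Kcnh6, a share of 1.59%, against 0.426% of all windows. The right part, GGACAGCGC, was in 2 of the 126, Gria2 and Kcnj4, and in 0.626% of all. None of the 11 matched genes that passed held either part in its window, which says nothing of sites elsewhere.

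In related lists of genes few passed, and the background for each is again 5.45% rising and 4.82% falling over all tested genes. Of 17 genes for REST and its corepressors, Ehmt2 itself fell and Hdac2, a histone deacetylase, rose (by 0.32 on the log2 scale in the authors' deposited table), while Rest had a log2 fold change of 0.01 (adjusted p = 0.982, mean 13166). Of 23 REST targets that are not channels, Snap25, a vesicle fusion protein, rose and Unc13a, a vesicle priming protein, fell. Snap25 had 4.78, 0.995 and 8.29 normalized counts in the controls and 43.3, 23.1 and 22.1 after Ehmt2 siRNA, with no overlap. Of 40 scaffold and auxiliary genes tested, 0 rose and Fgf11, Stac2 and Homer2 fell, with log2 fold changes of -0.57, -0.55 and -0.46 in the authors' deposited table.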

How the data were processed

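RNA-seq was available for 3 control siRNA and 3 Ehmt2 siRNA libraries of E14 cells. Per the labels' protocols, read pairs came from stranded polyA libraries. FastQC, Trimmomatic 0.36, STAR, DESeq2 and the builds mm10 and GRCm38 are named in the submitters' processing notes. No source used here names the annotation or the read counter. The authors deposited 1 table with DESeq2's column names: a signal for each gene, the mean over libraries of counts divided by size factors, a log2 fold change, and an unadjusted p-value, per the file headers. The table has 0 columns of values per sample that were left unused. The header does not name the numerator of the log2 fold change, which was read from the negative sign of Ehmt2.

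From these values, Benjamini-Hochberg adjusted p-values were computed over all 20461 genes with a mean above 0, and a gene rose or fell at an adjusted p below 0.05. Standard errors were taken as the log2 fold change over the normal quantile of its p-value, and 95% intervals from them. Size factors were recovered from genes with a single read, which take 6 distinct means. Whole reads per library were then searched for each gene as the integers that give the deposited mean to its last digit and, refitted, the deposited log2 fold change. Of 12126 genes searched (mean below 1000, or below 1500 for channel and receptor genes), 12106 had 1 solution. For 4696 genes with a mean of at least 5 the mean alone fixed the reads, and 99.98% of their refitted log2 fold changes lay within 1e-05 of the deposited ones. On simulated data for this comparison, the search recovered 1486 of 1491 genes with 0 wrong. The calling step found 184 of 200 genes changed at a log2 fold change of 1, with 6 false calls among 20461 genes. The changed genes were placed only at means of at least 50. Most channel and receptor genes lay below that level (median mean 13.1), where the share found was not tested. Fits that leave out libraries held each gene's dispersion at the value its deposited p implies, and a call needed a p at or below the largest that passed in the full table. They are approximate where the true dispersion differs. GC content came from the longest GENCODE transcript, and the trend was a lowess curve with a fraction of 0.3. Python 3.11.15, NumPy 2.4.6, pandas 2.3.3, SciPy 1.17.1, statsmodels 0.14.6, Numba 0.67.0 and Matplotlib 3.10.9 were used.

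Genes named in the text are those that passed, the most abundant member and the member with the smallest p of each family, passing genes of the related lists, Ehmt2 and Rest. Others (Scn2a, Cacna1e and Cacng7, members just short of the threshold, members of the GABA-A clusters and the NMDA family, and genes overlapping them) were chosen after their values were seen. Members, families and lists were chosen with earlier results of these data known, so their counts are descriptions read against the background. A few genes that the rule would name, counted above, are not reported here.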

Additional observations from a re-analysis of the deposited data

How the results depend on the processing

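The counts of 7 rising and 8 falling genes were recomputed under other settings, and no call changed direction. An adjusted p below 0.01 left 5 and 5. Testing only genes with a mean of at least 10 gave 6 and 11, and of at least 50 gave 3 and 9, since 4 of the rising genes had lower means. The Benjamini-Yekutieli adjustment gave 5 and 1. Requiring a change of at least 1 on the log2 scale gave 6 and 2. With the GC trend removed, 7 rose and 5 fell. Centring on the median of genes with a mean of at least 50 changed no call. Adjusting over the 16543 genes that stand in order of significance in the table, chosen after seeing the data, gave 7 and 10. Leaving out 1 library at a time gave 5 to 6 rising and 5 to 7 falling genes, without Cacna1a, whose reads were not recovered. Leaving out control C and Ehmt2 siRNA A together, also chosen after seeing the data, gave 5 and 5: Grin2c, Grin2d, Kcnk4 and Kcnmb2 were among those that lost their calls, and Cacng7 gained one. Kcnk2, Kcnc2, Gabra3, Gabrg3 and Kcnip3 kept theirs in every fit that left out libraries. No paired analysis was possible because the table holds 1 mean per gene over all libraries and the recovered libraries carry no replicate numbers. At a mean below 10, where 79 of the 173 genes lie, a fall could hardly pass: 2 of 5315 genes at that level did, so a change in those genes was mostly not detectable at this depth.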

Other observations

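Channels and receptors outside the symbol patterns also held genes that passed, at shares to be read against the 5.45% that rose and 4.82% that fell over all tested genes. Of 31 other ligand-gated channel genes 2 rose and 0 fell, among them Chrna7, a homomeric nicotinic acetylcholine receptor subunit, which rose. Chrna7 had 61.1, 57.7 and 94.7 normalized counts in control A, B and C and 151, 146 and 138 in Ehmt2 siRNA A, B and C, with no overlap.

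Of 41 other voltage-sensing and cation channel genes tested, Trpc6 and Trpv1 rose and Trpm4 and Trpv4 fell, all of them TRP channels. Trpc6, opened by diacylglycerol, had 65.9, 66.7 and 45.0 normalized counts in the controls and 121, 192 and 194 after Ehmt2 siRNA. Trpv1, the capsaicin receptor, had 6.69, 5.97 and 2.37 and then 24.8, 48.3 and 30.5. In both genes the groups were separate, with the lowest control in C and the lowest Ehmt2 siRNA library in A. Of 29 G-protein coupled transmitter receptor genes tested, Htr5a, a serotonin receptor, rose and Gabbr1, a GABA-B receptor subunit, fell. Htr5a had 669, 532 and 378 normalized counts in the controls and 986, 1795 and 1593 after Ehmt2 siRNA, again lowest in control C and in Ehmt2 siRNA A within their groups, as were the summed 2-cell-like markers. The part of those markers in these results was not tested.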
